A study of Mus musculus with 18 samples.

Results

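The comparison set all-trans retinoic acid directly against GW1516 in NaF cells, a line grown from a mouse mammary carcinoma. It took the 3 arrays of cells given retinoic acid and the 3 arrays of cells given GW1516, chosen by their labelled treatment, out of 18 arrays in the series. Every gene that carried a symbol of its own was compared, which came to 22180 genes with 1 probe set each. Gene expression was measured on Affymetrix arrays from total RNA, and all values below are log2 levels unless a fold is named.

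All NaF cells were kept in DMEM with 10% serum. For the ligand groups the medium was exchanged for one with charcoal-treated serum 48 h before treatment, and each ligand was then given at 1 µM for 6 h. Charcoal treatment strips serum of small lipophilic molecules, among them retinoids and steroids. Controls in the same serum, and cells given the synthetic retinoid TTNPB at 1 µM for 6 h, are quoted below as reference levels. The series also holds untreated cells in full medium and cells in full medium given palmitate at 10 µM for 6 h. No array of these other groups enters the difference between the ligands, but all of them enter the shared estimate of its spread. The labels give no genotype beyond the name of the line and do not say whether the replicate arrays came from separate cultures, so the p-values measure a spread that may be technical.

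Both compounds act through nuclear receptors, transcription factors that bind DNA together with a retinoid X receptor (RXR). Retinoic acid, the active acid form of vitamin A, activates the retinoic acid receptors (RAR), and early target genes include enzymes that degrade the hormone and a receptor that responds to it. GW1516 is a synthetic agonist of PPARδ, a receptor for fatty acids whose targets serve fatty acid import into mitochondria, oxidation and storage. Retinoic acid can reach RAR with the carrier protein Crabp2 and has also been proposed to reach PPARδ with the carrier Fabp5. A direct comparison of both ligands therefore asks at which genes the responses to the receptor agonists differ.

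Marker genes gave a mixed picture of mammary epithelial identity. Background was set per group at the 95th percentile of 1390 olfactory and vomeronasal receptor genes, 1.15 with retinoic acid and 1.30 with GW1516. Of 12 luminal epithelial markers measured, 8 lay above it with retinoic acid and 7 with GW1516. Krt18 (8.05 and 8.02), Cldn3 (9.18 and 8.60) and Cdh1 (5.46 and 5.01) were well above it, while Krt8 (1.60 and 1.85) and Epcam (1.41 and 1.47) were close to it and Esr1 and Pgr were under it. Of 8 basal markers 3 were above background in each group (Trp63, Acta2 and Cnn1 with retinoic acid, Krt17, Trp63 and Cnn1 with GW1516), and Krt14 and Myh11 were under it. Some markers of other cells were high in both groups, among them the fibroblast genes Postn (6.43 and 6.28) and Pdgfra (5.65 and 5.32) and the endothelial cadherin Cdh5 (8.73 and 8.21). Of 10 fibroblast markers 6 were above background with retinoic acid and 4 with GW1516. In both groups 4 of 9 macrophage markers, 2 of 8 adipocyte markers, 1 of 9 endothelial markers (Cdh5) and none of 8 T cell markers were above background. Over all 22180 genes, 11965 were above background in either group, so such counts alone do not mark a cell type. Cldn3 was the only marker on the 7 lists that passed the test between the ligands. In bulk RNA, fewer cells of a type and less RNA per cell cannot be told apart.

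Of the 6 arrays compared, GW1516 replicate 3 was unlike the rest. Its Pearson correlation over genes was 0.955 and 0.9537 with the other GW1516 arrays, which correlated at 0.9882 with each other, and the 3 retinoic acid arrays correlated at 0.987 to 0.9876. Its array median was 1.32, against 1.06 to 1.18 on the other 5, and the median of its olfactory and vomeronasal receptor genes was 0.995, against 0.677 to 0.741. Among genes above background the median SD was 0.121 with retinoic acid and 0.210 with GW1516. Each gene below whose call rested on this array, or whose difference moved by over 1.5 times, is therefore given with and without it where it is described.

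Response elements of RAR with RXR are usually direct repeats of a half-site spaced by 5 or 2 bases, and those of PPAR with RXR are spaced by 1 base. The half-site AGGTCA and its variants (AGTTCA, next GGGTCA, and last GGTTCA) were searched in any pairing as direct repeats on both strands of the 250 bases before each RefSeq gene start (GRCm38.p6). Of 32851 promoters, 0.0883% held such a repeat at a spacing of 5, 0.174% at 2 and 0.164% at 1. Promoters were found for 60 of the 78 genes that differed between the ligands. Of the 61 promoters of genes higher with retinoic acid, 1 held a repeat at a spacing of 5 and 1 at a spacing of 2. None of the 13 promoters of genes higher with GW1516 held a repeat. The sequences of the 2 matching genes are shown with that of Cyp26a1, whose promoter also matched but whose level was under background here. The half-sites of the matching repeat are in capitals, a single half-site elsewhere in a sequence is not, and each sequence is written 5′ to 3′ on the strand of its gene.
Rarb, chr14:16575477-16575569, minus strand, spacing 5, from 53 to 37 bases before the start: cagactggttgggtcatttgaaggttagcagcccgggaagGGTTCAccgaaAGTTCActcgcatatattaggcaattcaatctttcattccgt
Cyp26a1, chr19:37697736-37697807, plus strand, spacing 5, repeat read on the opposite strand, from 32 to 16 bases before the start: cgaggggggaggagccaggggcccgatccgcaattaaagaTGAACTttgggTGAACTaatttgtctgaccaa
Tinagl1, chr4:130175176-130175269, minus strand, spacing 2, from 107 to 94 bases before the start: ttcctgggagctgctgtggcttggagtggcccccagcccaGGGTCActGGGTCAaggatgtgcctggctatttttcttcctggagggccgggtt

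Rarb was higher with retinoic acid by 1.02, Tinagl1 by 0.28, and Cyp26a1 was not above background in either group. Tinagl1 means were 10.74 with retinoic acid, 10.46 with GW1516, 10.61 in controls and 10.56 with TTNPB. Its control mean thus lay between the ligands. The Tinagl1 call (limma, adjusted p = 0.0187) was lost without any single retinoic acid array (0.058 to 0.119). Over all promoters, 28 genes had a repeat at a spacing of 5. Of these, 13 were measured, 4 were above background and 1, Rarb, passed the test. The differences of the other 12 lay between -0.25 and 0.32. No such repeat was found in this window at Cyp26b1, Nrip1, Cpt1a or Slc25a34, which says only that these letters are absent from the 250 bases searched.

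Retinoic acid and GW1516 gave different levels of 78 genes, 0.352% of those tested (limma, Benjamini-Hochberg adjusted p under 0.05). With retinoic acid 63 genes were higher (0.284%), and with GW1516 15 were higher (0.0676%). The gene with the largest difference was Cyp26b1, an enzyme that breaks down retinoic acid, at 6.12 times its GW1516 level. On the GW1516 side the largest was Slc25a34, a mitochondrial carrier, at 2.79 times its level with retinoic acid. These calls use the spread of all 18 arrays, which differed in scale. Array medians were 0.47 to 0.55 on the full-medium and palmitate arrays and 1.06 to 1.32 on the charcoal-serum arrays. The mean absolute deviation from the group mean was 0.08 to 0.11 on the full-medium and palmitate arrays. It was 0.09 to 0.11 with retinoic acid and 0.14 to 0.23 with GW1516. Fitted on the 6 arrays alone, 2 genes passed, Cyp26b1 and Gabrp, and on the 12 charcoal-serum arrays 40 passed, 37 of them among the 78. The median difference of the called genes was 0.82 for those higher with retinoic acid and -0.68 for those higher with GW1516, against -0.01 over all genes.

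Of the 78 genes, 21 differed by at least 2-fold, 19 of them higher with retinoic acid, and 56 differed by at least 1.5-fold. All 3 arrays of one ligand lay beyond all 3 of the other for each of the 78, as they did for 2632 genes (11.9%) in all. An unadjusted p under 0.05 was reached by 2062 genes (9.3%), the share beside which the unadjusted counts per list below stand. Among the 11965 genes above background in either group, the 95% interval of the difference lay within 1.5-fold either way for 8196 (68.5%). For the others the arrays did not limit the difference to that size.

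**Figure D1:**
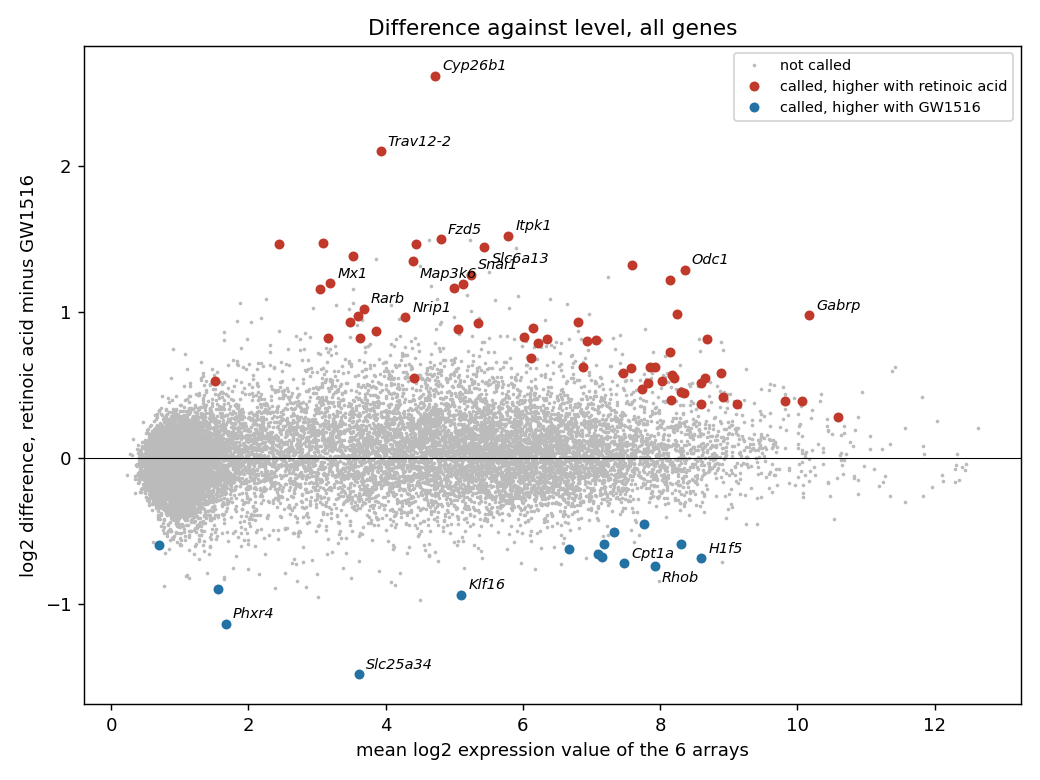
Difference between the ligands (retinoic acid minus GW1516, log2) against the mean log2 level over the 6 arrays, 1 point per gene; coloured points are the 78 genes past an adjusted p of 0.05. The called genes lie mostly above 0 (63 of 78), and Cyp26b1 stands highest, with a difference of 2.61.

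Without GW1516 replicate 3, 114 genes passed (0.514%), 79 higher with retinoic acid and 35 higher with GW1516. These included 67 of the 78. The other 11 included Trav9d-3, Snai1, Klf16, Ccnjl and Cluh, which are described below. The remaining 6, all higher with retinoic acid, were named after their values were seen. Krtap5-2 differed by 1.16 with all arrays and 1.04 without this one (adjusted p = 0.0393 and 0.0985), and Cmklr1, a chemerin receptor, by 0.82 and 0.69 (0.0365 and 0.106). Adssl1 differed by 0.68 in both fits (0.048 and 0.0581) and Tes by 0.62 and 0.46 (0.046 and 0.0838). The other Tes probe set differed by 0.33 (limma, adjusted p = 0.3065 over all probe sets, where the one used had 0.0511). Fbxo48 differed by 0.53 and 0.52 (0.0471 and 0.0779) and Slmap by 0.45 and 0.38 (0.0411 and 0.0693). Every one of the 78 kept its sign. That was fixed in advance, since for each of them no array of one ligand overlapped those of the other. For 5 genes the difference moved by over 1.5 times: Itpk1, Odc1, Oat, Gm13363 (1.32 to 0.85) and Gm11346 (-0.90 to -0.59), the last pair being provisional gene models named after their values were seen. With the other arrays left out singly, the count fell to 27 without retinoic acid replicate 1, 28 without replicate 2 and 40 without replicate 3, and it was 122 without GW1516 replicate 1 and 136 without replicate 2. In 19 of the 78, GW1516 replicate 3 lay over 0.5 from the mean of the other 2 GW1516 arrays.

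**Figure D2:**
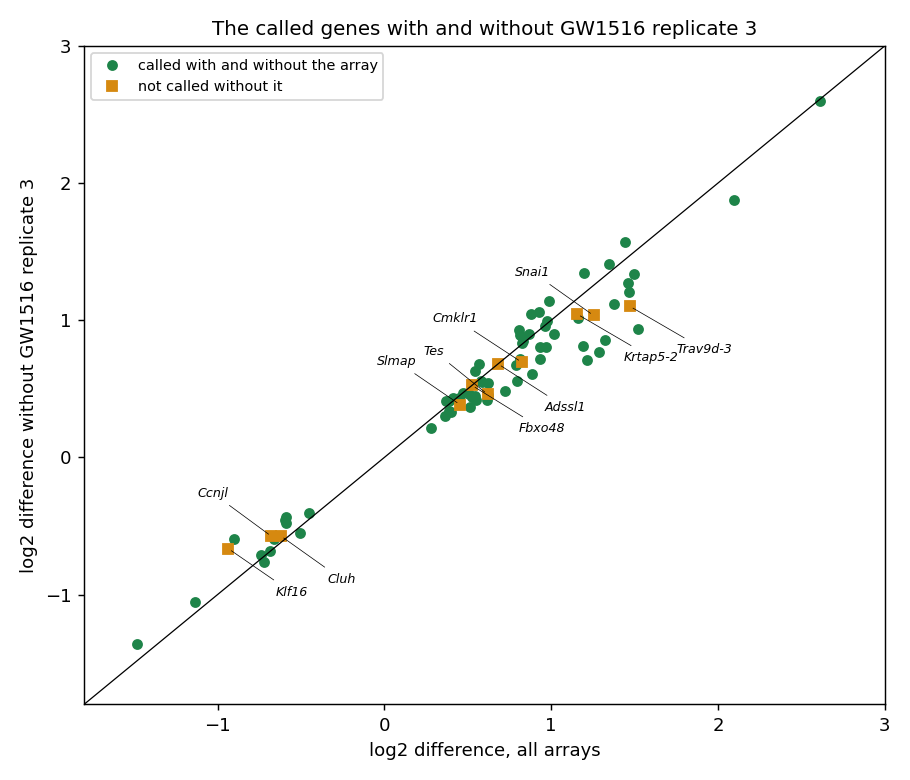
Difference between the ligands (retinoic acid minus GW1516, log2) of the 78 called genes with all arrays (x axis) and without GW1516 replicate 3 (y axis); squares are the 11 genes not called without that array. Itpk1 (1.52 and 0.94), Odc1 (1.29 and 0.77) and Oat (1.21 and 0.71) lie farthest inside the line of equal values.

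Genes of the retinoic acid receptor response were led by Cyp26b1. Its level was 6.21, 6.06 and 5.83 on the retinoic acid arrays and 3.34, 3.53 and 3.38 on the GW1516 arrays, with means of 3.41 in controls and 4.01 with TTNPB. The lowest retinoic acid array was thus far above the highest GW1516 array, and GW1516 arrays were near the control mean. The difference was 2.61 ± 0.17 (95% interval 2.26 to 2.97, limma adjusted p = 7.65e-08), and it was called in each of the 32 other fits planned. It was 2.60 without GW1516 replicate 3. Here and below, the value after ± is the SE from limma, which rests on the spread shared by all 18 arrays. It does not follow the spread of the compared groups alone. For Itpk1 the SD was 1.01 with GW1516 and 0.04 with retinoic acid, while the SE was 0.30.

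Rarb encodes a retinoic acid receptor that is itself a target of the hormone. Its arrays read 4.28, 4.07 and 4.21 with retinoic acid and 3.19, 3.39 and 2.93 with GW1516, with means of 3.01 in controls and 3.53 with TTNPB. The groups did not overlap, and the difference was 1.02 ± 0.17 (adjusted p = 0.00978). Without retinoic acid replicate 1 the adjusted p was 0.0665. Nrip1, a corepressor that binds agonist-bound nuclear receptors, was at 4.89, 4.91 and 4.52 with retinoic acid and at 3.81, 3.82 and 3.79 with GW1516. The GW1516 arrays were nearly equal and below every retinoic acid array, and TTNPB also gave a mean of 3.81, against 3.38 in controls. The Nrip1 difference was 0.96 ± 0.16 (adjusted p = 0.00978), and it missed the threshold without retinoic acid replicate 1 (0.0703) or 2 (0.0864).

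These were the 3 genes past the test among 19 measured RAR targets, of which 13 were above background, and no call was made on the GW1516 side. The differences of 11 of the 19 were above 0 and the median was 0.04. The median was 0.09 without GW1516 replicate 3, and 4 then passed, Stra6 being added. Tgm2, a transglutaminase induced by retinoids, read 8.03, 8.20 and 8.10 with retinoic acid and 7.68, 7.87 and 7.73 with GW1516. Its groups did not overlap, as was so for 11.9% of all genes, but the difference of 0.35 (95% interval 0.18 to 0.52) had an adjusted p of 0.0727. Cyp26a1, the other main retinoic acid hydroxylase, and Dhrs3, a retinaldehyde reductase, were under background in both groups, so no difference could be read for them. Rara and Rarg are the other receptors of retinoic acid. Rara differed by -0.18 (-0.51 to 0.16, adjusted p = 0.754), an interval within 1.5-fold either way. Rarg differed by 0.41 (-0.05 to 0.88, adjusted p = 0.588), an interval that reaches beyond 1.5-fold on the retinoic acid side.

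Among 26 genes of retinoid uptake, synthesis and storage, Cyp26b1 was the only one past the test, and the median difference was -0.07. When GW1516 replicate 3 was left out the median was 0.00, and Stra6 and Dgat1 passed as well. Stra6, the membrane receptor that takes up retinol, read 9.61, 9.68 and 9.61 with retinoic acid. With GW1516 it read 9.27, 9.26 and 9.91, so that GW1516 replicate 3 lay above all retinoic acid arrays and the other 2 below. Its difference was 0.16 (adjusted p = 0.73) with all arrays and 0.37 (0.0374) without GW1516 replicate 3, and Stra6 was singled out after its values were seen, as was Dgat1. Dgat1, which can esterify retinol as well as diglycerides, differed by 0.28 (adjusted p = 0.525) with that array and by 0.50 (0.000703) without it. Neither carrier passed the test. Fabp5 differed by -0.15 (-0.52 to 0.22, adjusted p = 0.827), and Crabp2 was near background, with means of 1.28 and 1.33.

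**Figure D3:**
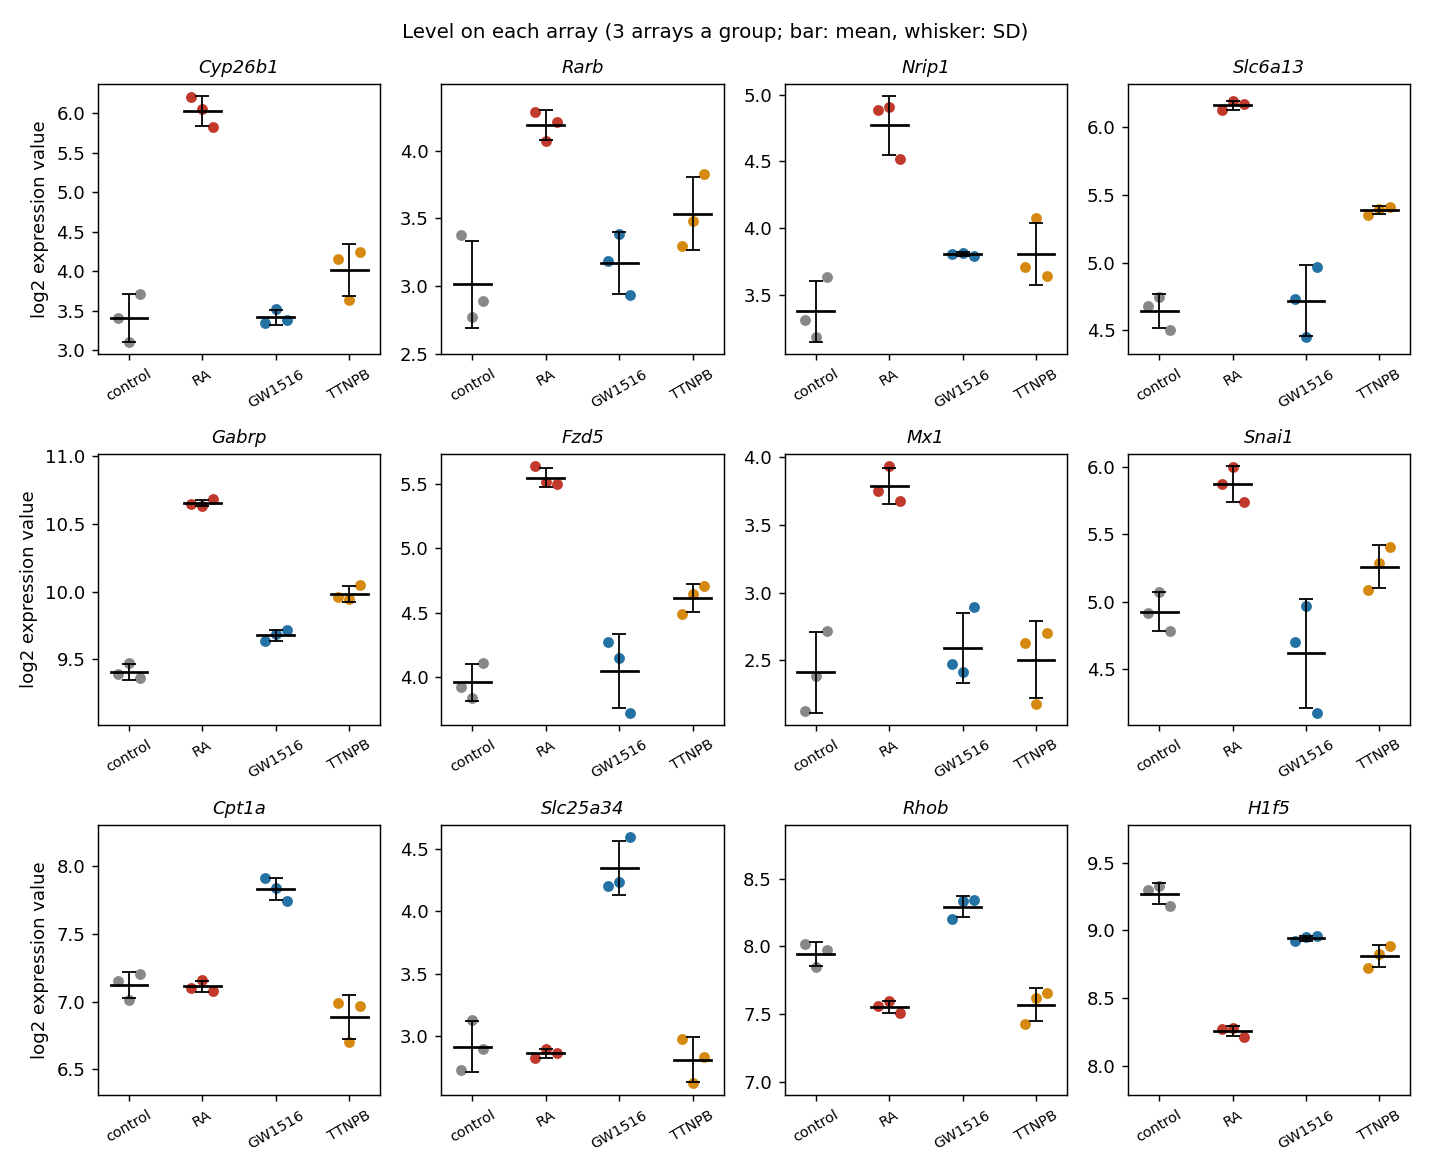
Log2 levels of 12 genes on the 12 arrays in charcoal-treated serum (control, retinoic acid, GW1516 and TTNPB; points are arrays, bars are group means, whiskers are SD, n = 3), each panel with its own range. Cyp26b1, Rarb, Nrip1, Slc6a13, Gabrp, Fzd5, Mx1 and Snai1 are higher with retinoic acid than with GW1516 on every array, and Cpt1a, Slc25a34, Rhob and H1f5 are lower.

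PPAR target genes on the GW1516 side were represented by Cpt1a and Slc25a34. Cpt1a, which makes acylcarnitines for import of fatty acids into mitochondria, read 7.91, 7.84 and 7.75 with GW1516 and 7.10, 7.16 and 7.08 with retinoic acid. Levels with retinoic acid lay around the control mean of 7.12, and TTNPB gave 6.89. The difference of -0.72 ± 0.10 (adjusted p = 0.00181), retinoic acid minus GW1516, was past the threshold with any single array left out. It was not past it on the 6 arrays alone (limma, adjusted p = 0.126).

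Slc25a34, a member of the mitochondrial carrier family, read 4.21, 4.24 and 4.60 with GW1516 and 2.83, 2.90 and 2.87 with retinoic acid. The means in controls (2.92) and with TTNPB (2.81) lay next to the retinoic acid arrays. Its difference was -1.48 ± 0.25 (adjusted p = 0.0106), and it missed the threshold when any of the 3 retinoic acid arrays was left out (0.0523 to 0.0663).

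Of 24 PPAR targets measured, 19 were above background, these 2 passed and no call was made on the retinoic acid side. The differences of 8 of the 24 were above 0, and the median was -0.09, or -0.015 without GW1516 replicate 3. Txnip, a regulator of glucose uptake picked out after its values were seen, passed only without that array, where it differed by -0.42 (adjusted p = 0.000426, against -0.26 and 0.436 with all arrays). Other known PPARδ responders did not pass the test. Angptl4, a lipase inhibitor, was under background in both groups, and Pdk4, a kinase that turns off pyruvate dehydrogenase, was under background with GW1516. Plin2, a lipid droplet coat protein, differed by 0.11 (-0.22 to 0.44), Acadl by -0.13 (-0.35 to 0.10) and Pdpk1 by -0.17 (-0.55 to 0.20). The receptor gene Ppard itself differed by 0.05 (-0.28 to 0.37, adjusted p = 0.946).

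Cpt1a was also the only gene past the test among 24 of fatty acid oxidation (median -0.06, or -0.01 without GW1516 replicate 3). Among 18 genes of cholesterol synthesis and uptake, Fdft1, squalene synthase, was the only call and was higher with GW1516. The list's median was -0.13, or -0.22 without GW1516 replicate 3. Its arrays read 7.92, 7.96 and 8.09 with GW1516 and 7.55, 7.55 and 7.51 with retinoic acid, both below the control mean of 8.13. The Fdft1 difference was -0.45 ± 0.09 (adjusted p = 0.0345), and the call was lost without any single retinoic acid array (0.122 to 0.139), charcoal control replicate 1 (0.0546) or full-medium control replicate 3 (0.0531).

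No gene passed among 21 of fatty acid synthesis and LXR response (limma; 4 had an unadjusted p under 0.05, all higher with retinoic acid). Abca1, the cholesterol exporter, read 4.73, 4.81 and 4.47 with retinoic acid and 4.38, 4.34 and 3.89 with GW1516. Its groups did not overlap, as was so for 11.9% of all genes. Its difference was 0.47 (0.15 to 0.79) with an adjusted p of 0.308. Srebf1 and Elovl5, which drive and carry out lipid synthesis, both differed by 0.40 (adjusted p = 0.203 and 0.187). For Elovl5 the difference was 0.54 (0.00333) without GW1516 replicate 3. Both were picked out after their values were seen.

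Of the other large differences on the retinoic acid side, several held with any single array left out, but none of these passed on the 6 arrays alone. Slc6a13, a GABA and taurine transporter, read 6.12, 6.19 and 6.17 with retinoic acid and 4.73, 4.45 and 4.97 with GW1516, against means of 4.64 in controls and 5.39 with TTNPB. The TTNPB mean lay between the groups, and the difference was 1.44 ± 0.13 (adjusted p = 1.72e-05). Fzd5, a Wnt receptor, was at 5.63, 5.51 and 5.50 with retinoic acid and at 4.28, 4.15 and 3.73 with GW1516, with 3.96 in controls. It differed by 1.5 ± 0.20 (adjusted p = 0.00125).

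Dzip1, a ciliary basal body protein, read 5.07, 5.23 and 5.22 with retinoic acid and 4.09, 3.85 and 3.18 with GW1516. GW1516 replicate 3 was the lowest of the 6, and the difference was 1.46 ± 0.18 (adjusted p = 0.00056). Rflna, which binds filamin, read 4.07, 4.38 and 4.20 against 3.08, 3.11 and 2.32 with GW1516. Again replicate 3 was lowest, and the difference of 1.38 ± 0.19 (adjusted p = 0.00181) was 1.12 without it. Map3k6, a stress-activated kinase, had groups that did not overlap, at 5.22, 5.16 and 4.82 with retinoic acid and 3.56, 3.76 and 3.85 with GW1516. The difference was 1.34 ± 0.20 (adjusted p = 0.00263).

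Tc2n was closer to background, at 3.69, 3.27 and 2.57 with retinoic acid and 1.87, 1.95 and 1.33 with GW1516. Its retinoic acid arrays were spread over more than 1 log2 unit but stayed above every GW1516 array, with a difference of 1.46 ± 0.21 (adjusted p = 0.00247).

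For Itpk1 and Odc1 the size of the difference rested on GW1516 replicate 3. Itpk1, an inositol phosphate kinase, read 6.50, 6.58 and 6.57 with retinoic acid and 5.60, 5.63 and 3.86 with GW1516. The difference was 1.52 ± 0.30 (adjusted p = 0.0343) with all arrays and 0.94 (0.00158) without replicate 3, and the call was lost without any single retinoic acid array (0.116 to 0.144). Itpk1 was also lost without any single full-medium control, charcoal control replicate 1 or TTNPB replicate 1 (0.0507 to 0.0532), which enter only the shared estimate of the spread. Odc1, the ornithine decarboxylase that starts polyamine synthesis, read 8.99, 9.13 and 8.88 against 8.24, 8.22 and 6.67.

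For Odc1 replicate 3 lay far below the other GW1516 arrays, which were near the control mean of 8.05. The difference was 1.29 ± 0.26 (adjusted p = 0.0388) with it and 0.77 (0.000561) without it, and the call was lost when any single array was left out other than those of GW1516 and palmitate replicate 2 (0.05 to 0.192). Oat, an aminotransferase that also consumes ornithine and was picked out after its values were seen, had the same array pattern. It read 8.71, 8.68 and 8.86 against 8.08, 8.0 and 6.52, with a difference of 1.21 ± 0.25 (adjusted p = 0.0393) and 0.71 (8.91e-05) without replicate 3. The call of Oat was lost when any single array of another group than GW1516 was left out (0.0535 to 0.169).

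The probe sets of 2 T cell receptor alpha V segments were also among the largest differences. That for Trav12-2 read 5.11, 4.99 and 4.82 with retinoic acid and 3.07, 3.13 and 2.44 with GW1516, a difference of 2.10 ± 0.31 (adjusted p = 0.00334). That for Trav9d-3 read 4.23, 3.77 and 3.46 against 2.89, 2.55 and 1.61, a difference of 1.47 ± 0.29 (adjusted p = 0.0285). Each came from 1 of several probe sets of its gene, and the others showed no such difference.

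For Trav12-2 the other 5 probe sets differed by -0.35 to 0.03 (adjusted p 0.503 to 0.972), and for Trav9d-3 the other 4 by -0.06 to 0.10. The V segments form a family of near-identical copies, so which transcript these probe sets read is uncertain. Without GW1516 replicate 3 the difference was 1.88 (adjusted p = 0.00783) for Trav12-2 and 1.10 (0.066) for Trav9d-3, whose call was also lost without retinoic acid replicate 1 (0.176) or 2 (0.119).

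A further group, singled out after their values were seen, had high levels and small errors. Gabrp, a GABA receptor subunit, read 10.65, 10.63 and 10.68 with retinoic acid and 9.64, 9.68 and 9.72 with GW1516. The arrays of each group were nearly equal, and the difference was 0.98 ± 0.06 (adjusted p = 7.65e-08). The mean was 9.41 in controls and 9.99 with TTNPB, so both ligands lay above the control mean. Ehd3, an endosome recycling protein, read 8.72, 8.79 and 8.70 against 7.59, 7.60 and 8.07 (difference 0.99 ± 0.11, adjusted p = 0.000186). For Ehd3 too both ligands lay above the control mean, which was 7.08, and TTNPB gave 8.01.

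Lbh, a transcription cofactor of mammary basal cells and a Wnt target, differed by 0.81 ± 0.10 (adjusted p = 0.000595). Its arrays read 9.03, 9.06 and 9.16 with retinoic acid and 8.25, 8.13 and 8.43 with GW1516. All of these lay above the Lbh control mean of 7.82, and TTNPB gave 8.61. Cldn3, a tight junction protein and luminal marker, read 9.19, 9.14 and 9.22 against 8.49, 8.78 and 8.53, with 9.05 on average with TTNPB and 8.43 in controls. Its difference was 0.58 ± 0.08 (adjusted p = 0.000742). Gabrp, Ehd3, Lbh and Cldn3 were called in all 18 fits that left out 1 array.

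On the GW1516 side outside the lists, Rhob, a small GTPase of endosomes, and H1f5, a linker histone, had the smallest adjusted p. Rhob read 8.20, 8.33 and 8.34 with GW1516 and 7.56, 7.59 and 7.51 with retinoic acid, with 7.94 in controls and 7.57 with TTNPB. The control mean lay between the ligands, and the difference was -0.74 ± 0.08 (adjusted p = 0.000154). H1f5 read 8.92, 8.95 and 8.96 against 8.27, 8.28 and 8.21, a difference of -0.69 ± 0.07 (adjusted p = 7.38e-05). Both ligands left H1f5 below the control mean of 9.27.

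Both calls held with any single array left out. So did that of Phxr4, at 2.40, 1.91 and 2.39 with GW1516 and 1.33, 1.05 and 0.91 with retinoic acid. Its retinoic acid mean was under background, so the difference of -1.14 ± 0.13 (adjusted p = 0.000213) is measured against a level the arrays could not resolve.

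The remaining GW1516-side genes named were less firm. Nop2, an rRNA methyltransferase of the nucleolus, read 7.55, 7.71 and 7.50 with GW1516 and 7.03, 7.16 and 7.04 with retinoic acid (difference -0.51 ± 0.08, adjusted p = 0.00836). Leaving out retinoic acid replicate 1 (0.0653) or 3 (0.0502) lost its call. Ror2, a Wnt5a receptor, read 7.45, 7.27 and 7.57 against 6.98, 6.69 and 6.63, a difference of -0.66 ± 0.12 (adjusted p = 0.0142). It was lost without retinoic acid replicate 2 (0.105) or 3 (0.0892). Thus Fzd5 and Ror2, both receptors of Wnt ligands, differed in opposite directions.

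Shc1, an adaptor of receptor tyrosine kinases, read 7.45, 7.29 and 7.71 with GW1516 and 6.87, 6.86 and 6.95 with retinoic acid. The difference was -0.59 ± 0.11 (adjusted p = 0.0175), lost without any single retinoic acid array (0.0589 to 0.111). Klf16, a zinc finger transcription factor, read 5.06, 5.54 and 6.11 against 4.58, 4.78 and 4.54. Its GW1516 arrays lay on both sides of the control mean of 5.99, and the difference was -0.94 ± 0.19 (adjusted p = 0.0355).

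Without GW1516 replicate 3 the Klf16 difference was -0.67 (0.0621). Ccnjl, a cyclin-like protein, differed by -0.68 ± 0.14 (adjusted p = 0.0374, and 0.0804 without GW1516 replicate 3), and Cluh, which binds mRNAs of mitochondrial proteins, by -0.62 ± 0.13 (0.0382, and 0.0646). Each of the 3 was lost with any of 10 arrays left out singly (0.0508 to 0.201). For all 3 these included the 3 retinoic acid arrays, GW1516 replicate 3, charcoal control replicate 1, TTNPB replicate 1 and full-medium controls 1 and 2. They also included full-medium control 3 and GW1516 replicate 2 for Klf16, full-medium control 3 and TTNPB replicate 2 for Ccnjl, and GW1516 replicate 1 and TTNPB replicate 2 for Cluh. Control means of Nop2 (8.18), Ror2 (7.59), Shc1 (7.68), Ccnjl (7.95) and Cluh (7.38) were above the GW1516 mean of each gene. For these 5 genes, then, both ligand means lay below the control mean, that of retinoic acid farther below.

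Among 22 genes of ER stress and the integrated stress response, Atf3 and Dnajc3 passed the test, both higher with retinoic acid. The differences of 10 of the 22 were above 0, 3 genes had an unadjusted p under 0.05 on the GW1516 side, and the median was -0.01, or 0.04 without GW1516 replicate 3. Atf3, a stress-induced transcription factor, read 8.32, 8.31 and 8.24 with retinoic acid and 7.81, 7.90 and 7.59 with GW1516. The difference was 0.53 ± 0.10 (adjusted p = 0.028) and was lost without any single retinoic acid array (0.078 to 0.139). Dnajc3, a cochaperone of the ER, read 6.58, 6.59 and 6.59 against 5.88, 6.08 and 5.14.

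Its difference was 0.89 ± 0.18 (adjusted p = 0.0355) and 0.61 (0.0447) without GW1516 replicate 3. The call was lost without any single retinoic acid array (0.12 to 0.153), and without any full-medium control, charcoal control replicate 3 or TTNPB replicate 1 or 2 (0.0508 to 0.058). Ddit3, the stress factor CHOP, differed by -0.01 (-0.32 to 0.31) and was picked out after its values were seen. Mx1, named for an interferon-induced GTPase, is annotated among the mouse genes used here as a transcribed pseudogene. It read 3.75, 3.93 and 3.68 with retinoic acid and 2.47, 2.41 and 2.89 with GW1516, with 2.41 in controls and 2.50 with TTNPB. Of these groups only retinoic acid had arrays above 3, and the difference was 1.20 ± 0.18 (adjusted p = 0.00263). Mx1 was the only one called of 21 interferon response genes, of which 10 were above background, and the median was -0.03, or -0.02 without GW1516 replicate 3.

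Snai1, a repressor of E-cadherin, was the only gene past the test among 23 of epithelial-mesenchymal transition and TGF-beta response (median 0.10). It read 5.87, 6.00 and 5.74 with retinoic acid and 4.70, 4.97 and 4.18 with GW1516, with 4.93 in controls. The difference was 1.25 ± 0.23 (adjusted p = 0.0199), and 1.04 (0.0503) without GW1516 replicate 3. It was also lost without any single retinoic acid array (0.062 to 0.135).

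Hypoxia and glycolysis genes gave 1 call in each direction among 23 (median -0.05). Slc2a1, the glucose transporter GLUT1, read 10.25, 10.27 and 10.28 with retinoic acid and 9.92, 9.93 and 9.77 with GW1516, a difference of 0.39 ± 0.07 (adjusted p = 0.0103). The other Slc2a1 probe set differed by 0.19 (adjusted p = 0.613 over all probe sets). Egln3, an oxygen-sensing prolyl hydroxylase, read 7.96, 8.09 and 7.96 with retinoic acid and 8.52, 8.36 and 8.91 with GW1516, a difference of -0.59 ± 0.12 (adjusted p = 0.0345). Both genes respond to HIF, and here each was higher with another ligand. Slc2a1 was lost without any single retinoic acid array (0.0543 to 0.0719) and so was Egln3 (0.098 to 0.156). Egln3 was also lost without charcoal control replicate 1, TTNPB replicate 1 or 2, or full-medium control replicate 2 (0.0508 to 0.0576).

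No cell cycle gene on the lists passed the test. None passed among 24 of DNA replication (limma; 2 had an unadjusted p under 0.05, 1 in each direction), and 22 of 24 had a 95% interval within 1.5-fold. Their median was -0.01. The replication licensing factor Cdc6 differed by 0.00 (-0.24 to 0.24). None passed among 21 mitosis genes (3 unadjusted, all higher with retinoic acid), with 17 intervals within 1.5-fold and a median of 0.03. Among 24 CDK inhibitor, apoptosis and growth arrest genes none passed (2 unadjusted, both higher with retinoic acid), and for 14 of the 22 above background the interval lay within 1.5-fold. Cdkn1b, the inhibitor p27, differed by 0.05 (-0.16 to 0.27). Cdc6 and Cdkn1b were chosen after their values were seen.

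Immediate early and MAPK feedback genes, transcribed within minutes of growth factor signalling, had a median of -0.15 over 26 genes. None passed with all arrays (limma; 9 had an unadjusted p under 0.05, all higher with GW1516). Without GW1516 replicate 3, 4 passed, all higher with GW1516, and the median was -0.24. These 4 were Egr1, Myc, Dusp6 and Spry4, singled out after their values were seen. Egr1, a transcription factor, differed by -0.52 (adjusted p = 0.237) with all arrays and -0.70 (0.031) without replicate 3, and Dusp6, a phosphatase of ERK, by -0.19 (0.468) and -0.29 (0.0131). Spry4, an inhibitor of receptor tyrosine kinase signalling, read 9.77, 9.74 and 9.13 with GW1516 and 9.25, 9.26 and 9.32 with retinoic acid. GW1516 replicate 3 thus lay below all retinoic acid arrays and the other 2 above, and the difference was -0.27 (adjusted p = 0.489) with it and -0.48 (0.000367) without it.

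Myc showed a similar array pattern, at 7.86, 7.95 and 7.31 with GW1516 and 7.41, 7.51 and 7.30 with retinoic acid. Its difference was -0.30 (adjusted p = 0.495) with all arrays and -0.50 (0.0115) without replicate 3. The call for each of these 4 genes therefore depended on 1 array.

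Of the lists not yet described, 23 Notch pathway genes had a median of 0.17 with no call (limma; 4 unadjusted, 2 in each direction), and that median was 0.05 without GW1516 replicate 3. No call was made among 24 NF-kB and cytokine genes (5 unadjusted, 3 of them higher with GW1516), 17 NRF2 and AhR targets (3 unadjusted, 2 higher with GW1516) or 23 small nucleolar and Cajal body RNAs (6 unadjusted, 5 higher with GW1516). Without GW1516 replicate 3 the median of these RNAs went from -0.10 to -0.34, and Scarna2 (-0.31, adjusted p = 0.0447) and Scarna17 (0.64, 0.00598) passed in opposite directions. With all arrays they differed by -0.21 (0.455) and 0.39 (0.45). Gclm, a subunit of the glutathione synthesis enzyme and an NRF2 target, also passed without that array, at -0.37 (0.0312) against -0.25 (0.428) with it. These 3 genes were singled out after their values were seen. Among 14 nuclear receptors of lipid ligands Rarb was the only one past the test, and among 15 receptor coregulators Nrip1 was. Over all 20 lists 411 of 453 genes were measured and 12 passed (2.92%, against 0.352% of all genes). The lists were drawn up with results of these data known, so nothing is read from that share.

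**Figure D4:**
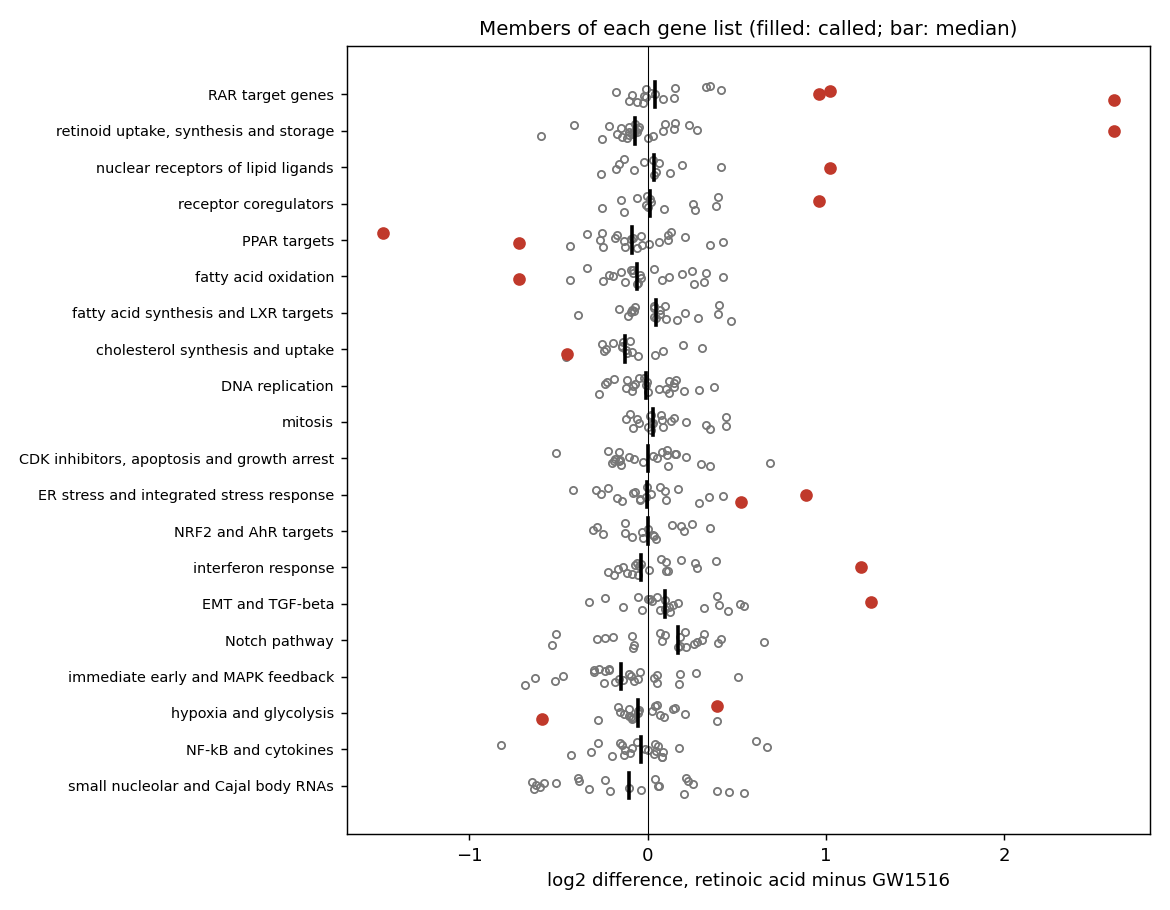
Difference between the ligands (retinoic acid minus GW1516, log2) for the measured genes of the 20 pathway lists, 1 point per gene; filled points passed an adjusted p of 0.05 and bars are list medians. Medians lie between -0.15 and 0.17, and single genes such as Cyp26b1 (2.61) and Slc25a34 (-1.48) stand away from the rest of their list.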

How the data were processed

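The authors deposited log2 values for 41345 probe sets on 18 arrays. Their range gave the scale. The submitters' processing notes name Partek, and background correction and normalization are not given in the sources used here. Each array value has no counting depth, so the number of arrays limits precision. Probe sets with 1 symbol (23521) were kept, and those with several (1814) or none (16010) were left out. Symbols of 23328 were updated through Entrez numbers with a GRCm38.p6 table. For the 1082 genes with several probe sets, that of highest mean signal across arrays was kept.

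In R 4.3.3, limma 3.58.1 estimated the 6 group means from all 18 arrays (lmFit, eBayes with an intensity trend, 12 residual degrees of freedom). P-values are 2-sided, adjusted by Benjamini-Hochberg over 22180 genes, with a threshold of 0.05. Folds are 2 to the power of the log2 difference.

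The comparison, gene lists and naming rule were chosen with earlier results of these data known. The rule named the 12 largest called differences in each direction with separate arrays, a higher group above background and no provisional name. It added up to 6 called genes of each list, and 19 fixed genes: Cyp26a1, Cyp26b1, Rara, Rarb, Rarg, Dhrs3, Crabp2, Tgm2, Nrip1, Fabp5, Ppard, Cpt1a, Pdk4, Angptl4, Plin2, Pdpk1, Acadl, Slc25a34 and Abca1. Genes named outside it are marked, apart from the markers and Tinagl1, named for its promoter. The alternatives were other sets of arrays, variance models, normalizations, filters, probe set rules and thresholds.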

Additional observations from a re-analysis of the deposited data

How the results depend on the processing

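The 78 genes called (63 higher with retinoic acid, 15 higher with GW1516) came to 2 (2 and 0) on the 6 arrays alone, Cyp26b1 and Gabrp, where 971 genes had an unadjusted p under 0.05 (limma). They came to 40 (30 and 10) on the 12 charcoal-serum arrays, 32 (26 and 6) with arrays centred on their medians, 119 (84 and 35) after quantile normalization and 195 (134 and 61) with array weights. Of the calls, 80.8% were higher with retinoic acid, 70.6% after quantile normalization and 68.7% with array weights. Leaving out dim genes gave 118 (95 and 23), leaving out genes under background 120 (97 and 23), and an adjusted p under 0.01 30 (25 and 5). With single arrays left out the counts ran from 27 to 136, 22 to 97 and 5 to 42, and 21 of the 78 genes were called in all 18 such fits. Of fits chosen after seeing the data, charcoal-serum arrays without GW1516 replicate 3 gave 157 (98 and 59), and quantile normalization without it 153 (104 and 49). The median of all genes was -0.01, and 0.01 after quantile normalization. No called gene reversed under any alternative run. In fits that kept the same values or left out 1 array a reversal was not possible, as the arrays of each called gene were separate. Sets of probes, a robust prior, no trend and a fold of at least 1.5 kept the 3 counts within 1.5 times. The causes of these changes were not tested. Some of these fits also tested fewer genes or used fewer arrays, and the part this played was not tested either.

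Same-numbered arrays of the ligands had deviations that correlated at 0.031, 0.125 and 0.153, against -0.15 to 0.087 for arrays of different number. Deviations were taken from group means, so these values depend on each other. Whether the numbers mark a pairing cannot be told from them. With the replicate number as a block, 31 genes were called (24 higher with retinoic acid, 7 with GW1516), and 1 on the 6 arrays alone (1 and 0).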
